A study of Mus musculus with 6 samples.

Results

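The heat shock proteins, the J-domain (DNAJ) proteins and the BAG proteins were examined as 1 chaperone family set in adult mouse forebrain cortex. Members are the genes whose symbol in the platform's probe table begins with Hspa, Hspb, Hspd, Hspe or Hsph and a digit, with Hsp90, or with Dnaja, Dnajb or Dnajc and a digit, together with Bag1 to Bag6. This rule on names found 76 genes among the 19938 that could be tested. Of these, 13 belong to the HSP70 and HSP110 families, 2 to HSP90, and 2 are the mitochondrial chaperonin genes. Another 8 carry the Hspb symbols of the small heat shock proteins, though Hspb11 encodes an intraflagellar transport subunit. The rest are 4 DNAJA, 13 DNAJB, 28 DNAJC and 6 BAG genes. All 76 were tested, without a filter on low values. A further 10 rows of the array carry a matching symbol together with that of another gene, and these were left out. Hspa1b and Hsp90ab1 were not analysed here.

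The 3 arrays labelled Dicer KO came from C57BL/6 mice with the genotype CamKII-Cre/+;Dicer flox/flox. The 3 control arrays came from littermates that carried either CamKII-Cre/+ with Dicer flox/+, or Dicer flox/flox with no Cre (+/+). Which of these each control had is not stated, so every animal carries at least 1 floxed Dicer allele and a control may carry Cre. The CamKII promoter is active in excitatory forebrain neurons, whereas the RNA is from whole cortex, which also holds interneurons, glia and vessels; the animals' exact age is not given. Each array was hybridised with RNA of 1 animal and is given in the labels as a biological replicate.

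Heat shock proteins hold unfolded proteins and help them to fold. HSP70 works in a cycle of ATP binding and hydrolysis: J-domain proteins deliver clients and start hydrolysis, and nucleotide exchange factors, among them the HSP110 proteins and several BAG proteins, release ADP and the client. In neurons this machinery also acts on tau, on synaptic vesicle proteins and on clathrin coats, and heat shock factor raises part of it under stress.

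The study compares cortex after the intended loss of Dicer, the enzyme that matures microRNAs, with control cortex, and the labels were first checked against Dicer1 itself. Log2 expression of Dicer1 was 9.58, 9.68 and 9.46 in the arrays labelled Dicer KO and 9.17, 9.21 and 9.18 in the controls, so the labelled KO arrays were the higher ones. The difference of 0.39 ± 0.087 (SE) had an adjusted p of 0.102 (limma, as for all adjusted p values here), and whether its probe set reads the deleted part was not examined, so it neither checks nor refutes the labels. Median log2 values over all genes were 7.62 to 7.68. The Y-linked gene Eif2s3y read 9.07 to 9.29 on control array 2 and on both odd-numbered labelled KO arrays, and 3.94 to 4.44 on the remaining 3, so the sexes are not balanced between the groups. Of 5 measured excitatory neuron markers, all 5 were below 0 in the labelled KO arrays, from -0.60 for Nrgn, the postsynaptic calmodulin-binding protein neurogranin (adjusted p = 0.0413, and 0.0488 to 0.188 with single arrays left out), to -0.011 for Tbr1, and the list's mean deviations from the control mean were -0.23, -0.25 and -0.32 in the labelled KO arrays against -0.048, 0.085 and -0.037 in the controls. Nrgn alone of the 5 was separated downwards, 20.0% of the list beside 11.0% of all genes. Neurod6 was at -0.45, Camk2a at -0.16 and Slc17a7 at -0.098, all with overlapping groups. Of 6 astrocyte markers, 5 were above 0, with array means of 0.23, 0.0093 and 0.64 against -0.087 to 0.092. Gfap was at 1.07 ± 0.33 (SE, adjusted p = 0.196), or 0.60 without labelled KO array 3. Mural and meningeal markers were above 0 for 5 of 6, inhibitory neuron and endothelial markers for 4 of 6 each, oligodendrocyte markers for 3 of 5 and microglia markers for 3 of 6. In bulk tissue fewer cells of a type and less RNA per cell cannot be told apart, and the part of these shifts in the chaperone values was not tested.

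Promoter sequences are shown for 4 members on which the results turn, because heat shock genes share a known DNA element, and for Hspa5 as the example of the ER stress element. RefSeq start sites (GRCm38.p6) were available for 62 of the 76 members, and the 250 bases before each start were searched on both strands. Capitals mark an inverted pair of heat shock units, GAANNTTC or TTCNNGAA, or in Hspa5 the ER stress response element, CCAAT and CCACG separated by any 9 bases; each pair of heat shock units can overlap the other. For Bag1 (chr4:40948295-40948544, minus strand), Hspa4 (chr11:53300480-53300729, minus strand), Hspa1a (chr17:34972157-34972406, minus strand) and Hspa5 (chr2:34771840-34772089, plus strand) the 250 bases are given. For Hsph1 (chr5:149636351-149636380, minus strand) 30 bases around the match are given, because that window lies partly inside the gene's annotated span.
Bag1: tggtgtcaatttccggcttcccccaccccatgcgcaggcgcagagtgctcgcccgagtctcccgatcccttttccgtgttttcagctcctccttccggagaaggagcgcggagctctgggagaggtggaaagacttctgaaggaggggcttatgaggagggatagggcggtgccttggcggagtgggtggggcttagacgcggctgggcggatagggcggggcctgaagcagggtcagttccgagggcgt
Hspa4: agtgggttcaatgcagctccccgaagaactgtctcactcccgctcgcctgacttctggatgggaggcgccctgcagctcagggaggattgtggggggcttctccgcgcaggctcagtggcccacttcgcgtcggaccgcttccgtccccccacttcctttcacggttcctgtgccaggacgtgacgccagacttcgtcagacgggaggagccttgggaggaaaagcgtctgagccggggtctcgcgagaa
Hsph1: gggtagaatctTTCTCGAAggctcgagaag
Hspa1a: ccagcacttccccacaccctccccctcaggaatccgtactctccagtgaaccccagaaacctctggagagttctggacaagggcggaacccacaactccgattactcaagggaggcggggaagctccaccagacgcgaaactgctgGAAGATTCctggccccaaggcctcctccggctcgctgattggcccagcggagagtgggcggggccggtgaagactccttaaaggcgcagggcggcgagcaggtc
Hspa5: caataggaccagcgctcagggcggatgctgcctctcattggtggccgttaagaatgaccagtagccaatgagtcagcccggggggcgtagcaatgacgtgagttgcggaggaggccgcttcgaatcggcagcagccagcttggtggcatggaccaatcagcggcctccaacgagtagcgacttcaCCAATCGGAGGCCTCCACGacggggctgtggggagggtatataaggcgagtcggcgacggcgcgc

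A heat shock pair was found in the windows of 13 of the 62 members (21.0%), where 14.5% of the 27025 genes with a window hold one. The 3-unit element, GAA, TTC and GAA each separated by any 2 bases, was found for Hspd1, Hspe1 and Dnajb6, 3 of 62 members, against 0.514% of all genes. The windows of Hspd1 and Hspe1 cover the same bases between these divergent genes and hold the same matches, so they are not separate cases, here or in the count of pairs. The ER stress response element was found for Hspa5, Hsp90b1 and Dnajc3, against 0.13% of all genes. Bag1 and Hspa4 hold no heat shock pair in these windows, which says only that these letters are absent there. A match is a description of sequence and not a measured binding site.

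Bag1 fell in the arrays labelled Dicer KO and was the 1 member of 76 past the threshold of an adjusted p of 0.05, which 0.281% of all genes passed. Bag1 encodes a nucleotide exchange factor of HSP70 that also binds the proteasome. Its log2 expression was 9.27, 9.28 and 9.30 in the labelled KO arrays and 9.77, 9.76 and 9.92 in the controls. The groups do not overlap, and the 3 labelled KO arrays differ from each other by less than the controls do. The means were 9.28 ± 0.013 and 9.82 ± 0.090 (SD, n = 3 each), a difference of -0.54 ± 0.084 (SE), 1.45-fold lower (adjusted p = 0.0483). The size of this difference was stable while its call was not. Without any 1 of the 6 arrays it lay between -0.57 and -0.49, and the adjusted p was 0.161, 0.144 and 0.0514 without labelled KO arrays 1, 2 and 3 and 0.173, 0.171 and 0.134 without control arrays 1, 2 and 3. With sex as a further term it was -0.52 (adjusted p = 0.148).

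**Figure D1:**
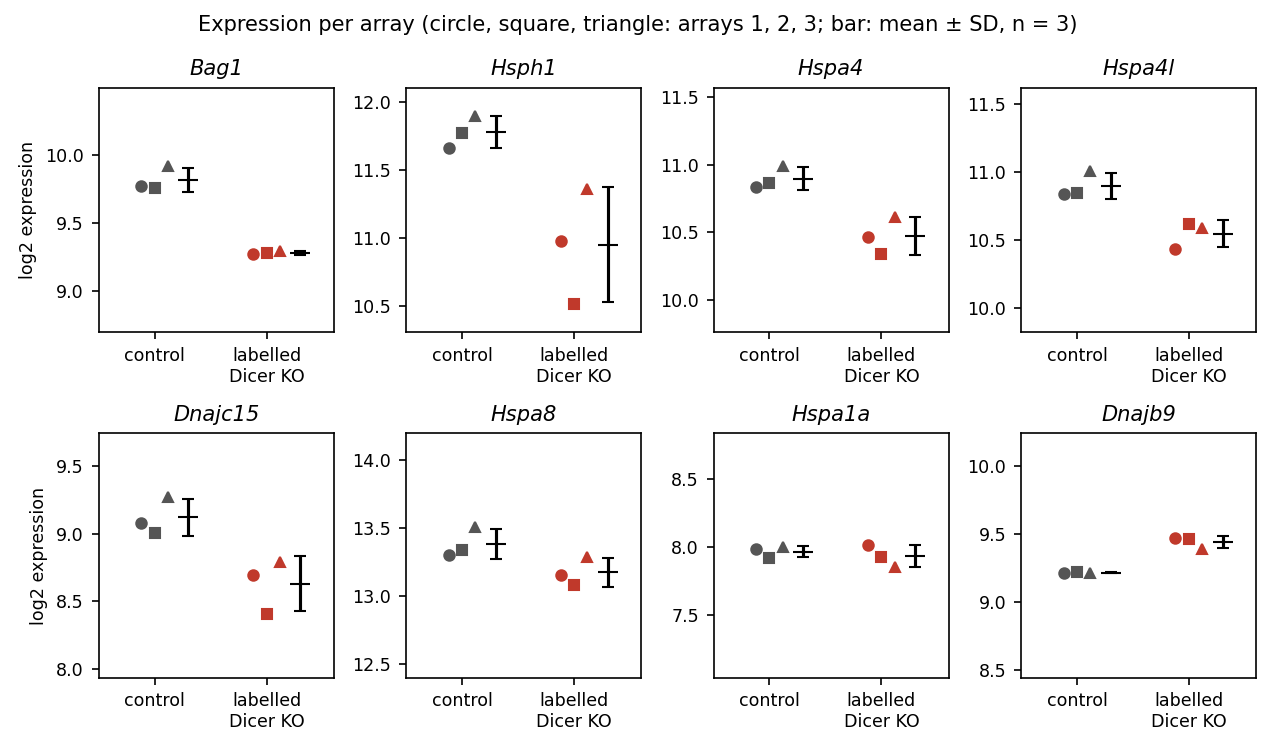
Log2 expression of 8 members in each array (y axis, all panels spanning the same range of log2 units) for controls (grey) and arrays labelled Dicer KO (red), with the mean ± SD (n = 3) as a black bar beside the points. Bag1 separates the groups with the tightest labelled KO values (9.27 to 9.30), Hsph1 shows the widest (10.52 to 11.36), and the groups overlap for Hspa1a.

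The other BAG genes did not pass. Bag6, whose product guards membrane proteins before insertion, read 10.31, 10.39 and 10.27 against 10.24, 10.17 and 10.20, so all labelled KO arrays lay above all controls, by 0.12 ± 0.081 (SE; adjusted p = 0.576). Bag4 was at 0.11 and Bag3, which works with Hspb8 in selective autophagy, at 0.10. Bag2, an inhibitor of the ubiquitin ligase CHIP, was at -0.073 and Bag5 at -0.093. These 4 overlapped between the groups, and Bag5 depended on labelled KO array 3, which read 8.42 while the other 5 arrays read 8.80 to 8.98: without it the difference was 0.083. Bag3 and Bag2 lay near 0 without single arrays, at -0.0026 without labelled KO array 3 and at 0.0055 without control array 3. Over the 6 BAG genes, 3 were above and 3 below 0, and the median was 0.014 beside -0.0092 over all genes tested.

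The 3 cytosolic HSP110 genes gave the most negative differences of the HSP70 and HSP110 families, and none passed the threshold. HSP110 proteins exchange the nucleotide of HSP70 and form a disaggregase with it and J-domain proteins. Hsph1, which encodes the stress-responsive HSP105, read 10.98, 10.52 and 11.36 in the labelled KO arrays and 11.67, 11.77 and 11.90 in the controls. All 3 labelled KO arrays lay below all controls, but they spanned a wide range. The difference was -0.83 ± 0.19 (SE), 1.77-fold lower with a 95% interval of -1.25 to -0.40 (adjusted p = 0.102), the most negative of all members. Labelled KO array 3 was the nearest to the controls. Without it the difference was -1.03 and passed (adjusted p = 0.0365), and without any other single array it lay between -0.88 and -0.61 (adjusted p = 0.195 to 0.257).

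Hspa4 read 10.47, 10.34 and 10.62 against 10.83, 10.86 and 10.99, with no overlap. Its difference was -0.42 ± 0.099 (SE), 1.34-fold lower (adjusted p = 0.113). Hspa4l, which also encodes an HSP110 protein, read 10.44, 10.62 and 10.59 against 10.84, 10.84 and 11.01, again without overlap. Its difference was -0.35 ± 0.093 (SE), 1.27-fold lower (adjusted p = 0.146). In Hsph1 and Hspa4 labelled KO array 2 was the lowest and array 3 the highest of its group, whereas in Hspa4l array 1 was the lowest.

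Among the HSP70 genes proper, the constitutive Hspa8 and the inducible Hspa1a gave different pictures. Hspa8 encodes the abundant cytosolic HSP70 that also strips clathrin from vesicles. It read 13.15, 13.08 and 13.29 in the labelled KO arrays and 13.30, 13.34 and 13.51 in the controls. The groups do not overlap, but labelled KO array 3 and control array 1 nearly meet. The difference was -0.21 ± 0.097 (SE; adjusted p = 0.376), and the 3 probe sets named for Hspa8 alone lay between -0.21 and -0.13, each without overlap. Hspa1a, the classical stress-induced HSP70 gene, read 8.02, 7.93 and 7.86 against 7.98, 7.92 and 8.001, with overlapping groups. Its difference was -0.034 ± 0.084 (SE), with a 95% interval of -0.22 to 0.16. Hspa1a and Hspa1b are near-identical copies, so their signals may not be separable on the array.

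The other HSP70 members were spread around 0. Hspa12a, an atypical HSP70, read 10.22, 10.30 and 10.01 against 10.35, 10.49 and 10.36, without overlap, at -0.22 ± 0.10 (SE; adjusted p = 0.359). Hspa5, the ER chaperone BiP whose promoter is shown above, read 11.19, 11.32 and 11.25 against 11.24, 11.40 and 11.38. The groups overlap, and the difference was -0.087 ± 0.087 (SE; 95% interval -0.28 to 0.11). Hspa9, the mitochondrial HSP70 mortalin, was at 0.13 ± 0.11, Hspa13 at 0.17 ± 0.10 and Hspa2, best known from the testis, at 0.20 ± 0.10 (SE). Hspa14 was at 0.096 with its labelled KO arrays just above the controls. Over the 13 genes 9 were below 0, with a median of -0.034; 5 were separated downwards and 1 upwards, where 11.0% and 9.3% of all genes were.

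HSP90 and the mitochondrial chaperonin showed small differences. Hsp90aa1, the stress-responsive cytosolic HSP90, read 13.13, 13.06 and 13.27 against 13.12, 13.20 and 13.40, at -0.089 ± 0.10 (SE; 95% interval -0.32 to 0.15). Its 3 probe sets lay between -0.13 and -0.087. Hsp90b1, the ER form, was at -0.021 ± 0.093 (SE). Hspd1 and Hspe1 encode the large and the small ring of the mitochondrial chaperonin and are divergent neighbours whose start sites are 216 bases apart. They were at -0.15 ± 0.087 and -0.10 ± 0.092 (SE), with overlapping groups in both. Hsp90aa1, Hspa8, Hspd1, Hspe1 and Dnaja1 have several probe sets each, and processed copies of such genes are common in the genome, so which copy each probe set reads is uncertain.

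Of the 8 genes with Hspb symbols, 3 were separated downwards, 37.5% beside 11.0% of all genes, and none passed. Hspb7, known from heart muscle, read 6.13, 6.14 and 6.11 against 6.55, 6.32 and 6.33, at -0.28 ± 0.092 (SE; adjusted p = 0.216). All 3 labelled KO values of Hspb7 lay below 6.24, the mean level that bounds the dimmest 25% of genes. Hspb3, known from muscle, read 7.38, 7.29 and 7.24 against 7.71, 7.52 and 7.50, at -0.27 ± 0.093 (adjusted p = 0.233). Hspb11, which despite its symbol encodes an intraflagellar transport subunit, was at -0.24 ± 0.098 (SE; adjusted p = 0.307). Hspb1, the stress-induced HSP25 gene that is also a reactive astrocyte transcript, was at -0.14 ± 0.090 (SE) with overlapping groups. Hspb8 had the most positive difference of all members and the widest spread of its family. It read 7.70, 7.72 and 8.11 against 7.20, 7.90 and 7.31: control array 2 lay above labelled KO arrays 1 and 2. The difference was 0.37 ± 0.19 (SE; adjusted p = 0.417), and it lay between 0.24 and 0.58 with single arrays left out.

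**Figure D2:**
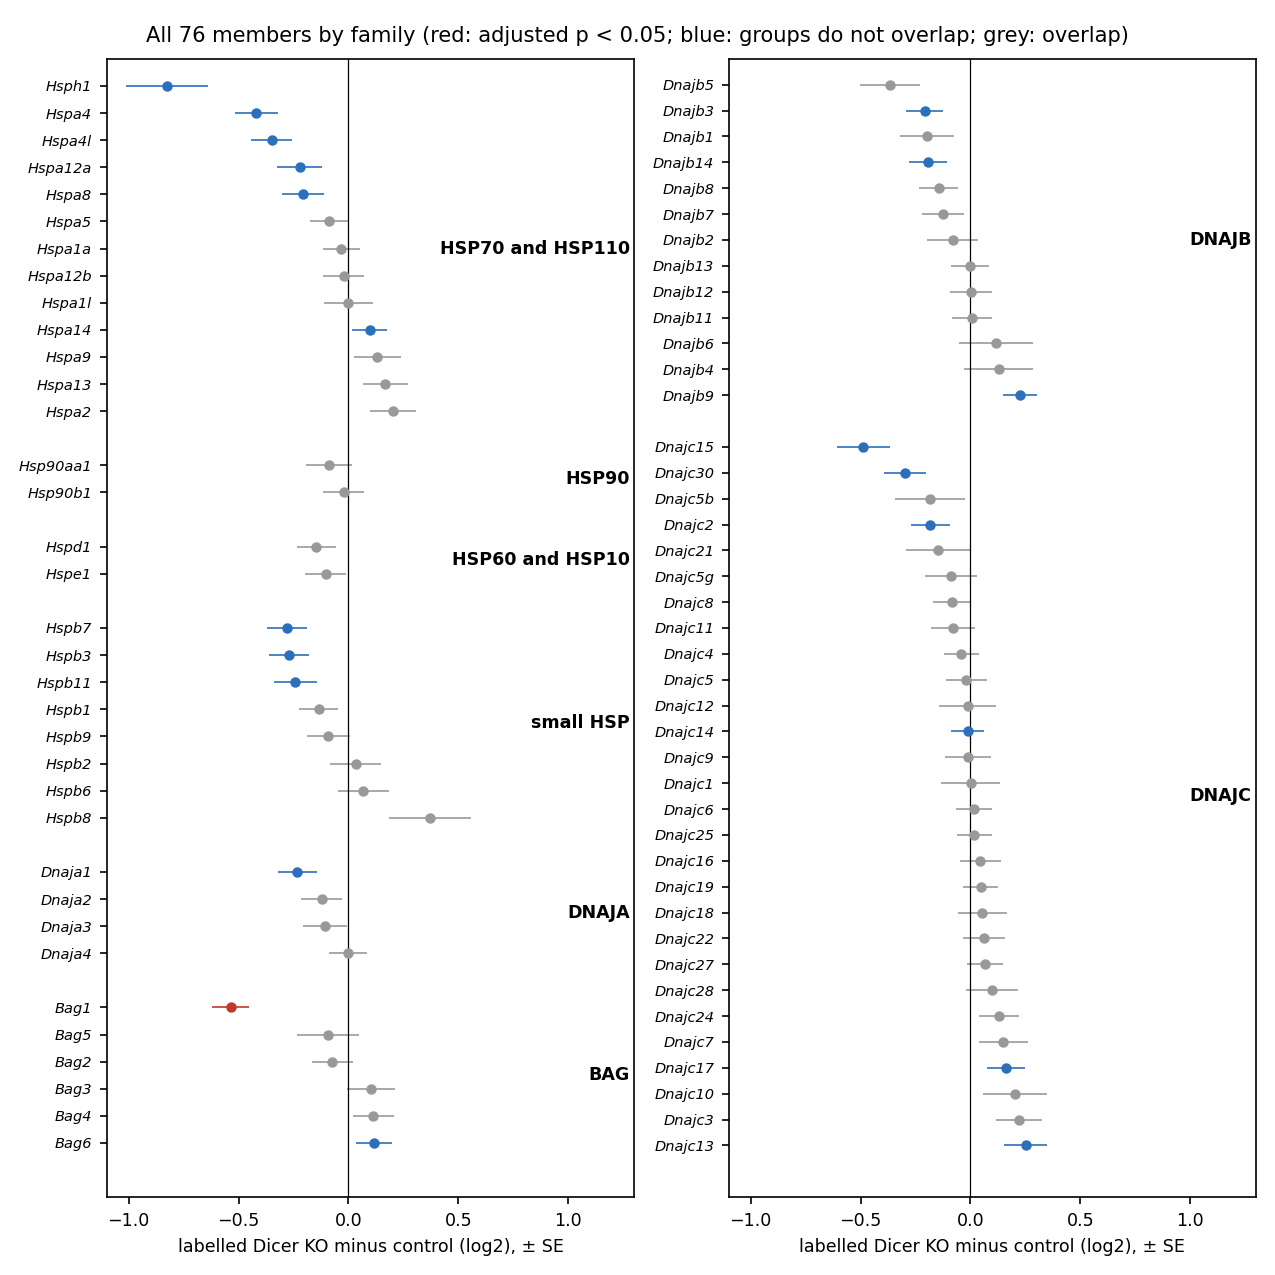
Difference in log2 expression (labelled Dicer KO minus control, ± SE, 3 arrays per group) for each of the 76 members, grouped by family. Bag1 (red) is the 1 member past the threshold, blue points are members whose groups do not overlap, and the 3 HSP110 genes stand at the left of the first family.

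J-domain genes made up 45 of the 76 members. Class A proteins resemble the bacterial co-chaperone in all domains, class B lack its zinc finger, and class C share only the J domain. All 4 DNAJA genes were below 0, with a median of -0.12. Dnaja1, a main cytosolic partner of Hspa8, read 11.33, 11.45 and 11.25 against 11.51, 11.63 and 11.57. Every labelled KO array lay below every control, and the difference was -0.23 ± 0.089 (SE; adjusted p = 0.273). Its 2 probe sets were at -0.23 and -0.29, both without overlap.

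Dnaja2, Dnaja3 and Dnaja4 were at -0.12, -0.11 and -0.0018, with overlapping groups.

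In the DNAJB class 8 of 13 genes were below 0, with a median of -0.082. Dnajb5 read 8.71, 8.52 and 9.04 against 9.25, 8.996 and 9.12, at -0.37 ± 0.14 (SE; adjusted p = 0.268). Its groups overlap through labelled KO array 3. Dnajb1, the stress-induced partner of HSP70, was at -0.20 ± 0.12 (SE; adjusted p = 0.523), also overlapping. Dnajb14 was at -0.19 and Dnajb3 at -0.21, both separated downwards, and Dnajb3 was dim, with log2 values of 4.83 to 5.16. Dnajb9 went the other way. It encodes an ER J-domain protein that is induced by the unfolded protein response, and it read 9.47, 9.46 and 9.39 against 9.22, 9.22 and 9.21. The controls were nearly equal and all labelled KO arrays lay above them, by 0.22 ± 0.078 (SE; adjusted p = 0.238). Dnajb2 and Dnajb6, which suppress aggregation of neurodegeneration proteins, were at -0.082 ± 0.12 and 0.12 ± 0.17 (SE). Dnajb6 lay at -0.0085 without labelled KO array 2 and at -0.060 without control array 3.

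The 28 DNAJC genes were balanced, with 15 above and 13 below 0 and a median of 0.0084. Their most negative differences belonged to 2 mitochondrial proteins. Dnajc15, an inner membrane protein of the import motor, read 8.69, 8.41 and 8.79 against 9.08, 9.01 and 9.27. No labelled KO array reached the controls, and the difference was -0.49 ± 0.12 (SE), 1.40-fold lower (adjusted p = 0.127). Dnajc30 read 9.14, 9.04 and 9.18 against 9.38, 9.32 and 9.56, at -0.30 ± 0.095 (SE; adjusted p = 0.206), also without overlap. The 10 mitochondrial members of the set had a median of -0.091, with 7 below 0, and Dnajc19, a further import motor subunit, was at 0.046.

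The remaining DNAJC genes without overlap had smaller differences. Dnajc2, a ribosome-associated J-domain protein, was at -0.18 ± 0.088 (SE) and Dnajc17 at 0.16 ± 0.086 (SE). Dnajc14 was separated downwards by a difference of -0.013, with all arrays between 9.67 and 9.70.

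Dnajc13 gave the most positive difference of the DNAJC class. It encodes an endosomal protein that brings Hspa8 to retromer-coated membranes. It read 10.68, 10.84 and 10.96 against 10.50, 10.62 and 10.60, so the groups do not overlap, and the difference was 0.25 ± 0.097 (SE; adjusted p = 0.280). Its 15 probe sets all gave positive differences, from 0.083 to 0.25, and in 3 of the 15 the groups did not overlap. The probe set used is the brightest and also gave the highest of the 15 differences, whose median was 0.15, so the value printed is at the top of their range. The 15 read the same RNA on the same arrays and are not replicates.

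**Figure D3:**
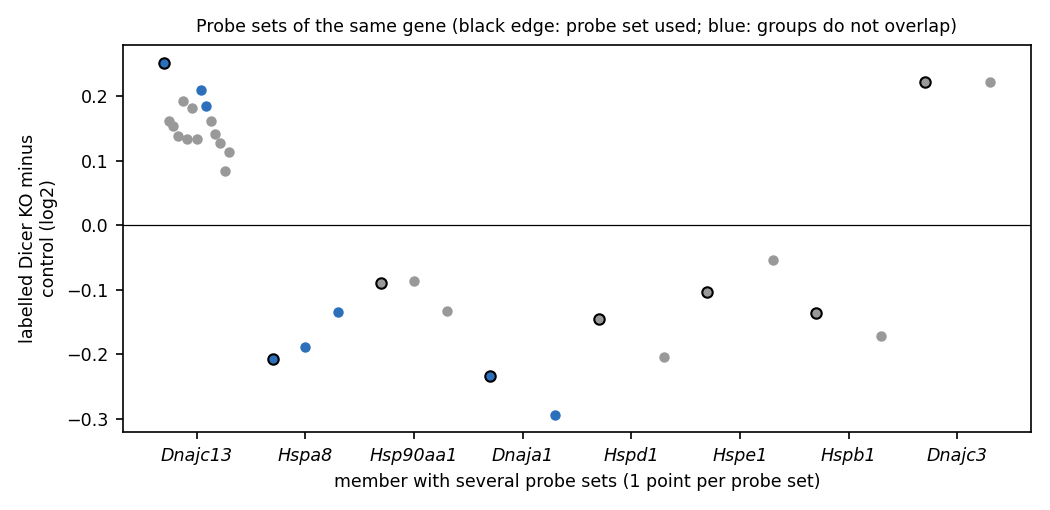
Difference in log2 expression (labelled Dicer KO minus control) for each probe set of the 8 members with several; the black edge marks the probe set used and blue marks groups that do not overlap. All probe sets of a gene have the same sign, and the 15 of Dnajc13 lie between 0.083 and 0.25; the 2 rows of Dnajc3 hold identical values.

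The J-domain proteins of the synaptic vesicle and of clathrin uncoating were close to 0. Dnajc5, the cysteine string protein of synaptic vesicles, read 10.58, 10.52 and 10.52 against 10.68, 10.56 and 10.42. The groups overlap, and the difference was -0.019 ± 0.093 (SE; 95% interval -0.23 to 0.19). Dnajc6, the neuronal auxilin that recruits Hspa8 to clathrin coats, read 11.68, 11.73 and 11.79 against 11.65, 11.72 and 11.79, at 0.016 ± 0.083 (SE; 95% interval -0.17 to 0.21). These intervals leave room for differences of up to about 0.2 on the log2 scale, so the values do not show that the transcripts were equal.

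Over the whole set, 12 of 76 members were lower and 2 higher at an unadjusted p under 0.05, where 7.39% and 7.01% of all genes were (14.4% in either direction). The 12 are 15.8% of the members. The groups did not overlap for 21 members, 16 with the labelled KO arrays lower and 5 with them higher, which is 21.1% and 6.58%. Over all genes 20.3% did not overlap, 11.0% with the labelled KO arrays lower and 9.3% with them higher. The median difference over the 76 was -0.021 beside -0.0092 over all genes tested. With single arrays left out the median ranged from -0.052 to -0.019.

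Among lists by regulation and place, the one of stress-inducible genes held Hspa1a, Hsph1, Hspa4l, Hsp90aa1, Hspb1, Hspd1, Hspe1, Dnaja1, Dnajb1, Dnajb4 and Bag3, and also Hspa8, which is largely constitutive (12 of 13 listed genes measured). It had 10 members below 0 and a median of -0.14. Its mean deviation was -0.19, -0.17 and -0.17 in the labelled KO arrays against -0.049, -0.0053 and 0.054 in the controls. Hsph1, at -0.83, had the most negative difference of the list and weighs in these means. Means without Hsph1 were not taken. The list was chosen with earlier results of these data known, so its shares are a description only. Hsph1, Hspa4l, Dnaja1 and Hspa8 were separated downwards, 33.3% of the list beside 11.0% of all genes. The other 8, Hspa1a, Hspb1 and Dnajb1 among them, overlapped, and none of the 12 passed the threshold. The mean of the excitatory neuron markers named above was lower on the same arrays, though Nrgn alone of them was separated. The part of these markers in the stress-inducible values was not tested. The 9 ER-resident members had a median of 0.018, with 7 above 0. Dnajb9 was the 1 separated member, upwards, which is 11.1% of the 9 beside 9.3% of all genes. Dnajc3, an ER co-chaperone, was at 0.22 ± 0.10 and Dnajc10, an ER disulfide reductase, at 0.20 ± 0.14 (SE), both with overlapping groups.

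**Figure D4:**
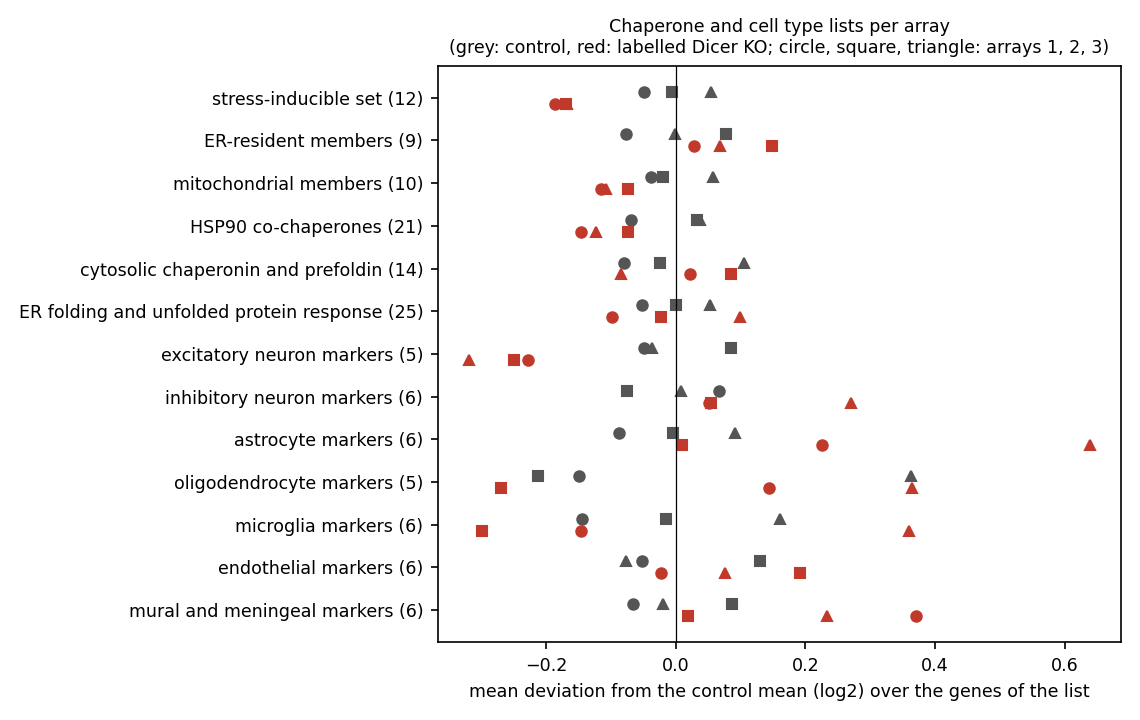
Mean deviation from the control mean (log2, x axis) over the genes of each list, per array, for controls (grey) and arrays labelled Dicer KO (red), with the number of genes in brackets. The stress-inducible set lies lower in all 3 labelled KO arrays (-0.19 to -0.17), as does the mean of the excitatory neuron markers. The most negative stress-inducible gene, Hsph1 at -0.83, weighs in the means of that set. Of the excitatory neuron markers, Nrgn alone was separated. The mean of the astrocyte markers is highest in labelled KO array 3 (0.64), and Gfap weighs in it.

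Partners of the chaperones outside the name rule were read from lists of known co-chaperones. Of 21 measured HSP90 co-chaperones 16 were below 0, with a median of -0.12; none passed. At an unadjusted p under 0.05, 3 were lower and 1 was higher, together 19.0% of the list beside 14.4% of all genes. Chordc1, a heat-inducible HSP90 partner, read 8.88, 9.14 and 9.28 against 9.61, 9.93 and 9.61. The groups do not overlap, and the difference was -0.62 ± 0.13 (SE; adjusted p = 0.0885). Tomm34, which links HSP70 and HSP90 during mitochondrial import, was at -0.53 ± 0.12 (SE; adjusted p = 0.0904, 0.0488 without labelled KO array 3 and 0.184 to 0.261 without any other single array). Ppid, a cyclophilin of the HSP90 complex, was at -0.42 ± 0.16 (SE; adjusted p = 0.268).

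Among 7 exchange factors and other HSP70 partners, Hspbp1 had the most negative difference. Hspbp1 encodes a cytosolic exchange factor of HSP70. It read 8.85, 8.81 and 8.73 against 9.27, 9.26 and 9.15, without overlap. The difference was -0.43 ± 0.084 (SE), 1.35-fold lower (adjusted p = 0.0780). Among further exchange factors, Grpel2, of mitochondria, was at 0.26, Sil1, of the ER, at 0.16 and Hyou1, an ER relative of HSP110, at -0.13, and none passed.

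The cytosolic chaperonin and prefoldin genes, which fold tubulin and actin, lay within -0.13 and 0.21 (14 measured, 8 below 0, none past an unadjusted p of 0.05), with Cct4 and Vbp1 at the ends and Pfdn5 at 0.14. Of the heat shock transcription factors and their binding protein, 4 of 5 genes were measured: Hsf2 was at -0.025, Hsf4 at 0.075, Hsf5 at 0.25 and Hsbp1 at 0.020, all with overlapping groups. Hsf1 was not analysed here. Among 25 genes of ER folding and the unfolded protein response, 6 were lower and 3 higher at an unadjusted p under 0.05, together 36.0% of the list beside 14.4% of all genes, and none passed the threshold. The 6 lower genes were Pdia6, a disulfide isomerase, at -0.36 ± 0.089 (SE), Atf4 at -0.33, Calr at -0.29, Manf at -0.26, Xbp1 at -0.25 and Sdf2l1 at -0.24. Edem1, which sorts misfolded glycoproteins for degradation, was higher at 0.49 ± 0.094 (SE, adjusted p = 0.0780). Ero1a, an ER oxidase, was higher at 0.37 ± 0.10 (SE) and Derl1 at 0.29. Of 9 mitochondrial chaperones and proteases, Bcs1l, an assembly factor of respiratory complex III, was at -0.48 ± 0.20 (SE; adjusted p = 0.321). Its labelled KO arrays read 8.18, 7.95 and 8.84 against 8.68 to 8.92, and the value turned on single arrays: leaving out the third of these gave -0.74 (adjusted p = 0.0405), leaving out the second -0.29 (0.621), and leaving out any other array gave an adjusted p of 0.450 to 0.572. Yme1l1, an inner membrane protease, was at 0.24 ± 0.10 (SE) and Clpp, a matrix protease, at -0.16 ± 0.090 (SE).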

How the data were processed

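Total RNA of 1 animal per array was hybridised to Affymetrix whole-transcript arrays, per the labels' protocols. The authors deposited log2 expression values per probe set; RMA and limma are named without versions in the submitters' processing notes. RMA can compress differences of dim transcripts, and the definition of the probe sets was not given in the sources used here. No detection calls were used, and precision is limited by having 3 arrays per group. Of 35557 rows, 21789 have 1 gene symbol, and the brightest probe set of each gene was kept (19938 genes).

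Groups were compared with limma 3.58.1 in R 4.3.3, two-sided, on group alone. P values were adjusted over the 19938 genes by Benjamini-Hochberg, with calls made under 0.05. Intervals are 95% model intervals. With 3 against 3, exact permutation could reach no p under 0.1 and was not run. The fit was tested on data simulated with independent noise, in 5 runs with 100 genes changed at each of 2 sizes. It called 84.2% of changes of 1 log2 unit and 36% of changes of 0.5, and 4.15% of its calls were false. All pairs of arrays held different values in at least 35523 rows. Same-numbered arrays deviated together with r of 0.089, 0.17 and 0.29. The first is under 0.1 and the labels give no litter, day or batch, so the main fit did not take numbers as pairs. Whether the numbers mark pairs is not settled. Promoter windows are RefSeq's.

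Members and lists were chosen with earlier results of these data known. Named genes were Dicer1, members past the threshold, the 16 of smallest p, a set list of well-known members and up to 3 genes of smallest p per list; others were named after their values were seen. Alternatives were the array number as a block, single arrays left out, centring on the median, quantile normalization once more, no dim genes, averaged probe sets, all rows fitted, a trended robust prior, array weights, an unmoderated test and a threshold of 0.1. Sex as a covariate was added after the data were seen.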

Additional observations from a re-analysis of the deposited data

How the results depend on the processing

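The call of Bag1 is the only member call, and its count depended on the setting. Leaving out single arrays, 0 to 1 members and 0 to 129 of all genes passed, against 1 and 56; the 1 member was Hsph1 and both highest counts came without labelled KO array 3. In the other 5 no gene passed, and 2197 to 2532 had an unadjusted p under 0.05. With the array number as a block, 2 members (Bag1 and Hsph1) and 215 genes passed, Edem1 (adjusted p = 0.0469) and Tomm34 (0.0432) among them. Each labelled KO array correlated most with the control of its own number (r = 0.089, 0.17 and 0.29). Arrays of unlike number gave r from -0.23 to 0.094, the highest between control array 1 and labelled KO array 2. Whether the numbers mark pairs is therefore not settled. With array weights 6 members (Bag1, Hsph1, Hspa4, Hspa4l, Dnajc15 and Dnajb5) and 1116 genes passed, and 22 members, against 14, had an unadjusted p under 0.05 (28.9% against 18.4% of the members, beside 23.7% against 14.4% of all genes). No member and no gene passed when every row was fitted (0), in the unmoderated test (0) or with sex in the model (0), where 3725 of 35557 rows, 2403 genes and 2292 genes had an unadjusted p under 0.05; the cause was not tested. Without the dimmest genes 98 genes passed, with a trended robust prior 84, and at an adjusted p under 0.1 320. Bag1 kept its direction in all settings.

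Differences near 0 changed sign. Over single arrays left out they ranged from -0.076 to 0.0050 for Hspa1a, -0.081 to 0.029 for Hsp90b1, -0.018 to 0.050 for Dnajc6, -0.087 to 0.045 for Dnajc5, -0.0026 to 0.16 for Bag3, -0.13 to 0.0055 for Bag2, -0.20 to 0.083 for Bag5, -0.060 to 0.23 for Dnajb6 and -0.12 to 0.044 for Hsf2. With array weights Hspa1a was at 0.039, Dnajc6 at -0.014 and Bag5 at 0.033, and with sex in the model Hsf2 was at 0.0069.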

Other observations

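Several members share a divergent promoter region with another measured gene, with start sites at most 1000 bases apart on opposite strands. Bag1 starts 259 bases from Chmp5, a gene of endosomal sorting, which was at -0.17 ± 0.093 (SE; limma adjusted p = 0.461) beside -0.54 for Bag1. Hspb11 starts 159 bases from Lrrc42, and the 2 were at -0.24 ± 0.098 and -0.29 ± 0.083 (SE). Dnajc8 was at -0.085 beside -0.35 ± 0.11 (SE; adjusted p = 0.188) for Atpif1, the inhibitor of the mitochondrial ATP synthase, 145 bases away. Hspa14 and Cdnf were at 0.096 and 0.10, Dnajb4 and Fubp1 both at 0.13, and Hspa1a and Hspa1l at -0.034 and -0.0022. Bag5 and Coa8, 13 bases apart, were at -0.093 and -0.077. Hspb6 and Proser3 (0.068 and -0.037) and Dnajc5g and Slc30a3 (-0.090 and 0.082) differed in sign. None of these neighbours passed the threshold, and these genes were named after their values were seen.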
